A study of Mus musculus with 8 samples.

Results

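The genes described here are the collagens and laminins, chosen as every gene whose symbol in the array annotation is that of a collagen chain (Col, a number, a chain number) or of a laminin alpha, beta or gamma chain. They are 52 genes, 42 collagens and 10 laminins, read by 101 array probes, among 31334 genes tested, of which 19087 had a symbol. All 52 were measured in every hybridisation, 20 by 1 probe and 32 by several. Gene names rest on a spot layout inferred from the data.

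The study measured RNA of the nucleus accumbens, a ventral striatal region, from male mice in a conditioned place preference procedure, in which injections are paired with a place. The first group received cocaine at 15 mg/kg on days 2, 3 and 4, and the other received saline on the same days. The labels and design text name no strain, genotype, age or interval from the last injection to dissection. Each of 4 arrays carried 1 cocaine and 1 saline RNA in different dyes. Cocaine RNA was in Cy5 on 2 arrays, called cocaine in Cy5 replicates 1 and 2, and in Cy3 on the other 2, called saline in Cy5 replicates 1 and 2. The titles give each RNA its own code, but whether a code is 1 animal or a pool is not stated, and the design text speaks of 5 measurements and of 4 nuclei per treatment. Every array was scanned on 2 scanners, and the 2 scans were averaged, so n is 4 hybridisations.

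Collagens are triple-helical proteins of the extracellular matrix. Laminins are trimers of an alpha, a beta and a gamma chain that form a sheet in basement membranes, to which a collagen IV network is attached. In the brain most of this matrix lies around blood vessels and in the meninges, made by endothelial cells, mural cells, fibroblasts and astrocytes, while the neuropil is rich in proteoglycans and poor in fibrillar collagen. Some collagens of the fibril-associated and transmembrane classes are also made by neurons.

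Values are log2 ratios of cocaine over saline, so that a positive value is higher with cocaine. No label states that direction. It is taken from reading the cocaine in Cy5 columns as Cy5 over Cy3, unturned, and no value here tests it. The other columns had been turned to the same treatment direction before deposit. Differences between the 2 scanners correlated across array rows at 0.514 and 0.517 between hybridisations of the same dye orientation, and at -0.542 to -0.492 between opposite orientations, which shows a shared direction and not which it is. Were the ratios saline over cocaine, every cocaine and dye estimate below would have the opposite sign. Ratios show differences within a gene and carry no level of expression, so the levels of these genes, and whether each is above background, were not measured here. In a piece of tissue, fewer cells of a type and less RNA per cell cannot be told apart.

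Sequences of the start regions of 2 pairs of genes are shown because their ratios are set side by side in the results. Col4a1 and Col4a2 lie head to head on opposite strands of mouse chromosome 8, with no coding gene between them, and their RefSeq start windows (build GRCm38.p6) share 78 bases, in capitals. The Col4a1 window is chr8:11312777-11313076 on the minus strand and the Col4a2 window is chr8:11312555-11312854 on the plus strand. Each is printed 5′ to 3′ on the strand of its own gene.
Col4a1: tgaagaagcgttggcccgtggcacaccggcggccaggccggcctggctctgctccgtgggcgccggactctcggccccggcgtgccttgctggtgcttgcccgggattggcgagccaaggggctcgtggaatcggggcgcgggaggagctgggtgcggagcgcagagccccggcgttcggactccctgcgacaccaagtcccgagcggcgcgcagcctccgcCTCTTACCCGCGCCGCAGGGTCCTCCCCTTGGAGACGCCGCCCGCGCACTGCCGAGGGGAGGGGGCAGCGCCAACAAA
Col4a2: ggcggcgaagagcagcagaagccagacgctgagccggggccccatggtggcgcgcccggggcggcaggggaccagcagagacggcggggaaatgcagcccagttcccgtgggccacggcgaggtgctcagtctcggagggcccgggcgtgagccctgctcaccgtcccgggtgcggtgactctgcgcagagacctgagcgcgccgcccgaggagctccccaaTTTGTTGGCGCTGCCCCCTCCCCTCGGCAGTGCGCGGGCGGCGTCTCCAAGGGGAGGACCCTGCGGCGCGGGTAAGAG

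Lamb1 and Lamb2 encode alternative laminin beta chains on different chromosomes. Their windows are chr12:31265043-31265342 and chr9:108479612-108479911, both on the plus strand, with each GGGCGG hexamer (a GC box), on either strand, in capitals.
Lamb1: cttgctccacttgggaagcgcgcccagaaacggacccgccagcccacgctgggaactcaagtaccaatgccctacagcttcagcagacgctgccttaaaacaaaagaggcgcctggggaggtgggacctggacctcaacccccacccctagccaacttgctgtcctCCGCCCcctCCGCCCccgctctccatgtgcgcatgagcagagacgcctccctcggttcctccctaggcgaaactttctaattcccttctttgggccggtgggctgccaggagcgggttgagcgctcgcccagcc
Lamb2: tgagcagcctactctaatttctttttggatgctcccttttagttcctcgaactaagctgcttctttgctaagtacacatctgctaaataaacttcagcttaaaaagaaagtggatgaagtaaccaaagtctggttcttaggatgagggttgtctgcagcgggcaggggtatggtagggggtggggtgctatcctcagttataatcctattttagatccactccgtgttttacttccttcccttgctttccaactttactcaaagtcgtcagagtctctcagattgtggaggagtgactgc
The Lamb1 window holds the hexamer on the minus strand at 2 places, and the Lamb2 window has no match to these letters. Start windows were found for 38 of the 52 genes, 42 windows in all. GGGCGG, searched on both strands, stood in 59.5% of them and in 35.7% of all 32851 start windows. CCAAT stood in 33.3% against 37.4%, TATAAA in 11.9% against 13.6%, and TGANTCA (an AP-1 site) in 1 window, that of Col6a1 (2.38%), against 7.81% of all windows. A match is a description of letters and no evidence of binding.

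None of the 52 collagen and laminin genes differed between cocaine and saline by limma at a Benjamini-Hochberg adjusted p of 0.05. Over all genes tested, 8 passed (0.0255%), 1 higher (0.00319%) and 7 lower (0.0223%). Adjusted p-values of the 52 genes lay between 0.784 and 1. At an unadjusted p below 0.05 there were 3 genes (5.77%), against 6.04% of all genes, a share near the background. These were Lamb3, higher with cocaine, and Col6a6 and Col4a3, lower with cocaine, where 2.8% of all genes were higher and 3.24% lower at that p. The count was 1 when cocaine in Cy5 replicate 2 was left out, and likewise 1 when saline in Cy5 replicate 1 was.

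The intervals bound the ratios as these arrays read them. Whether a gene was above background was not measured, so they do not bound its difference in RNA. In the fit after centring, all 52 intervals at 95% lay inside -1 to 1 on the log2 scale, and 31 lay inside -0.5 to 0.5. The lowest bound was -0.87, for Col6a6, which is 0.548-fold, and the highest was 0.965, for Col6a1, which is 1.95-fold. The median interval reached 0.37 to either side of its estimate, a factor of 1.29. The median of the 52 estimates was -0.03, with 23 above 0 and 29 below, against a median of 0.03 over all genes, with 17750 above and 13584 below. The median size of the estimate, regardless of sign, was 0.09 for collagens and laminins and 0.13 for all genes. These are descriptions, and no test of the group as a whole was made. The bounds of -1 and 1 need not hold under other processing. The SE of Col6a1 was 0.23 in the fit after centring and 0.28 with robust eBayes. With Axon scans only, Col4a3 stood at -0.75 ± 0.22.

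**Figure D1:**
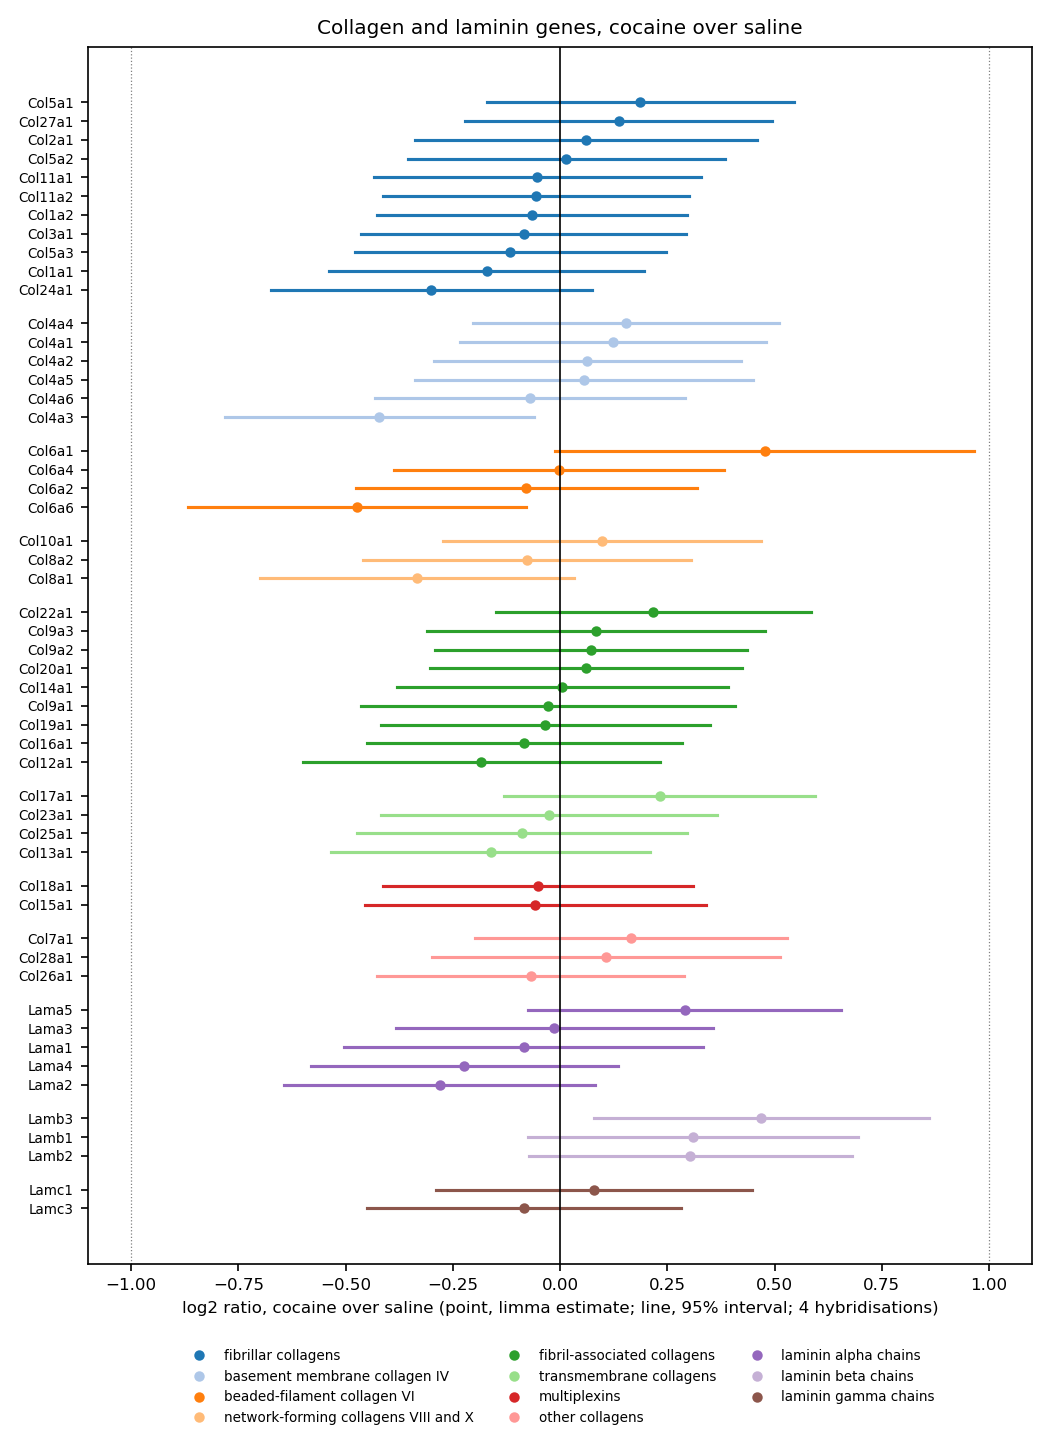
Log2 ratio of cocaine over saline (horizontal axis) of the 52 collagen and laminin genes, grouped by structural family. Points are limma estimates over 4 hybridisations and lines are 95% intervals. Dotted lines mark -1 and 1. All intervals lie between the dotted lines, and 3 of them, those of Lamb3, Col4a3 and Col6a6, leave out 0.

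Fibrillar collagens form the banded fibres of connective tissue. The 11 genes had a median of -0.06, with 4 above 0. Col1a1 and Col1a2, whose products form type I collagen together, stood at -0.17 ± 0.17 and -0.07 ± 0.17 (limma estimate ± SE, n = 4, here and below unless another error is given). limma draws this SE largely from a spread pooled over all genes. Col3a1, a collagen of vessel walls, stood at -0.09 ± 0.18. The type V chains, which control fibril diameter, lay between -0.12 for Col5a3 and 0.19 for Col5a1. Col2a1, Col11a1 and Col11a2, cartilage collagens, stood at 0.06, -0.05 and -0.06, and Col27a1 at 0.14.

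Col24a1, a minor fibrillar collagen of bone, was the fibrillar gene farthest from 0. Its ratios were -0.52 and -0.01 with cocaine in Cy5, and -0.54 and -0.13 with saline in Cy5. All 4 were below 0 and the dye coefficient was close to 0 (0.03). The estimate was -0.30 ± 0.18 (limma adjusted p = 0.859), and the 95% interval, -0.68 to 0.07, included 0.

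Collagen IV is the network collagen of basement membranes. The 6 genes had a median of 0.06, with 4 above 0. Col4a1 and Col4a2, whose chains form the trimer found in nearly all basement membranes, gave small ratios as means over their probes. Dye coefficients of single probes ran from -0.18 to 0.73 for Col4a1 and from -0.19 to 0.54 for Col4a2. Col4a1 had 0.35 and 0.43 with cocaine in Cy5, and -0.12 and -0.17 with saline in Cy5. Col4a2 had 0.30 and 0.17 with cocaine in Cy5, and -0.15 and -0.07 with saline in Cy5. Both were above 0 in one dye orientation and below 0 in the other, and their estimates of 0.12 ± 0.17 and 0.06 ± 0.17 had limma adjusted p-values of 0.938 and 0.969. The intervals ran from -0.23 to 0.48 and from -0.29 to 0.43. As array ratios these are 0.85-fold to 1.39-fold for Col4a1 and 0.816-fold to 1.34-fold for Col4a2.

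Col4a3, Col4a4 and Col4a5 encode chains of a second collagen IV trimer, best known from the kidney glomerulus. Col4a3 was 1 of the 3 genes at an unadjusted p below 0.05. Its ratios were -1.32 and -1.43 with cocaine in Cy5, and 0.39 and 0.67 with saline in Cy5. The sign followed the dye orientation, and the estimate of -0.42 ± 0.17 (limma adjusted p = 0.784) is what remained beside a dye coefficient of -0.95. The scanners differed, at -0.09 for Agilent scans only and -0.75 for Axon scans only. Col4a4, its neighbour on the chromosome, had 0.11 and 0.10 with cocaine in Cy5, and 0.17 and 0.24 with saline in Cy5. All 4 lay above 0, with an estimate of 0.15 ± 0.17 (adjusted p = 0.921). The 2 genes had estimates of opposite sign with overlapping intervals, and their difference was not tested. Col4a5 and Col4a6, also neighbours, stood at 0.06 ± 0.19 and -0.07 ± 0.17.

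Collagen VI forms beaded microfilaments around cells. Its 4 measured genes had a median of -0.04 and held both the highest and the lowest estimate among collagens. Col6a1 had 1.66 and 1.85 with cocaine in Cy5, and 0.14 and -1.74 with saline in Cy5. The 2 saline in Cy5 replicates disagreed in sign, and the estimate was 0.48 ± 0.23 (limma adjusted p = 0.822). It was 0.005 without saline in Cy5 replicate 1, and leaving out saline in Cy5 replicate 2 gave 0.949. Col6a2, the next gene on the chromosome, whose chain joins that of Col6a1 in the same trimer, stood at -0.08 ± 0.19. Col6a6 had -0.94 and -1.88 with cocaine in Cy5, and 0.54 and 0.38 with saline in Cy5. Its estimate of -0.47 ± 0.19 (limma adjusted p = 0.784) again stood beside a large dye coefficient, -0.93. It was -0.25 with Agilent scans only and -0.69 with Axon scans only, and -0.24 without cocaine in Cy5 replicate 2. Col6a4 stood at -0.003 ± 0.18.

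Among network-forming collagens of the short-chain class, Col8a1, a collagen of corneal and vascular membranes, had -0.48 and -0.90 with cocaine in Cy5, and 0.13 and -0.08 with saline in Cy5. Of these 4 ratios 3 were below 0, and the estimate was -0.33 ± 0.17 (limma adjusted p = 0.839). It was -0.15 with Agilent scans only and -0.52 with Axon scans only. Col8a2 stood at -0.08 ± 0.18 and Col10a1, a collagen of growth-plate cartilage, at 0.10 ± 0.18.

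The 9 fibril-associated collagens, which decorate the surface of fibrils, had a median of 0.005, with 5 above 0. Their estimates lay between -0.18 for Col12a1 and 0.22 for Col22a1. Col12a1 had -0.24 and -1.45 with cocaine in Cy5, and 0.56 and 0.40 with saline in Cy5, so the size hung on replicate 2 of the first orientation. Its scans differed. In Axon scans it had 0.29 and -1.52 with cocaine in Cy5, and -0.24 and -0.24 with saline in Cy5, so the orientations overlapped there. Col22a1, a collagen of muscle-tendon junctions, had 0.94 and 1.38 with cocaine in Cy5, and -0.62 and -0.84 with saline in Cy5. Col19a1, which some interneurons make in mouse brain, had -0.39 and -0.74 with cocaine in Cy5, and 0.14 and 0.85 with saline in Cy5. Averaged over scanners, in each of these 3 genes the orientations did not overlap and had opposite signs. Their estimates were -0.18 ± 0.20, 0.22 ± 0.17 and -0.03 ± 0.18 (limma adjusted p-values of 0.92, 0.892 and 0.985).

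The transmembrane collagens sit in the cell membrane and shed their ectodomains. Col17a1, a hemidesmosome protein of epithelia, had 0.15 and -0.11 with cocaine in Cy5, and 0.30 and 0.58 with saline in Cy5. Of these 3 were above 0, and the estimate was 0.23 ± 0.17 (limma adjusted p = 0.877). Col25a1, a neuronal collagen known as a component of amyloid plaques in humans, had -0.27 and -0.95 with cocaine in Cy5, and 0.66 and 0.20 with saline in Cy5, and an estimate of -0.09 ± 0.18. Col13a1, a collagen of the neuromuscular junction, stood at -0.16 ± 0.18 and Col23a1 at -0.03 ± 0.19. The multiplexins Col15a1 and Col18a1, basement membrane collagens whose C-terminal fragments include endostatin in the case of Col18a1, stood at -0.06 ± 0.19 and -0.05 ± 0.17. Col7a1, the collagen of anchoring fibrils in skin, stood at 0.17 ± 0.17, Col26a1 at -0.07 ± 0.17 and Col28a1 at 0.11 ± 0.19.

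Laminin alpha chains carry the sites for cell receptors. Of the 5 genes 1 was above 0, and the median was -0.08. Lama2, the alpha chain of muscle and of astrocytic and mural basement membrane, had -0.28 and -0.61 with cocaine in Cy5, and -0.21 and -0.03 with saline in Cy5. Lama4, an endothelial alpha chain, had -0.33 and -0.52 with cocaine in Cy5, and -0.03 and -0.01 with saline in Cy5. Both genes were below 0 in all 4 hybridisations, with the smaller sizes in the saline in Cy5 pair, and their estimates were -0.28 ± 0.17 and -0.22 ± 0.17 (limma adjusted p-values of 0.861 and 0.884). Lama2 was -0.10 with Agilent scans only and -0.46 with Axon scans only, and Lama4 was -0.06 and -0.39 with the same scanners. Lama5, the other alpha chain of brain endothelium, had 0.98 and 0.97 with cocaine in Cy5, and -0.17 and -0.62 with saline in Cy5, with an estimate of 0.29 ± 0.17 (adjusted p = 0.859). Lama1, an alpha chain of the embryo and the pial surface, stood at -0.08 ± 0.20 and Lama3, of epithelia, at -0.01 ± 0.18.

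Laminin beta chains were the family with the highest median, 0.31, and all 3 measured genes were above 0. With the direction turned they would be the lowest, at -0.31. Their median was 0.17 in dye-profile values, 0.135 without saline in Cy5 replicate 1 and 0.511 when saline in Cy5 replicate 2 was left out. Lamb3, known from epithelial laminin, had 1.0 and 0.37 with cocaine in Cy5, and 0.58 and -0.08 with saline in Cy5. Of these 3 were above 0, the dye coefficient was 0.22, and the estimate of 0.47 ± 0.19 had a limma adjusted p of 0.784. It was 0.65 with Agilent scans only and 0.29 with Axon scans only. Lamb1 had 1.27 and 1.47 with cocaine in Cy5, and -0.35 and -1.15 with saline in Cy5. Lamb2 had 1.302 and 1.33 with cocaine in Cy5, and -0.37 and -1.05 with saline in Cy5. Averaged over scanners, the values of Lamb1 and Lamb2 lay within 0.14 of each other on every array, and their estimates were 0.31 ± 0.18 and 0.30 ± 0.18 (adjusted p-values of 0.859 and 0.858). Both had large dye coefficients, 1.06 and 1.01, and the pair's likeness was not tested. It was looser in single scans, with estimates of 0.29 for Lamb1 and 0.50 for Lamb2 from Agilent scans and 0.33 and 0.11 from Axon scans. Lamb1 was 0.109 without saline in Cy5 replicate 1, and leaving out saline in Cy5 replicate 2 gave 0.511. The gamma chains Lamc1, the partner in most laminins, and Lamc3 stood at 0.08 ± 0.18 and -0.08 ± 0.17.

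**Figure D2:**
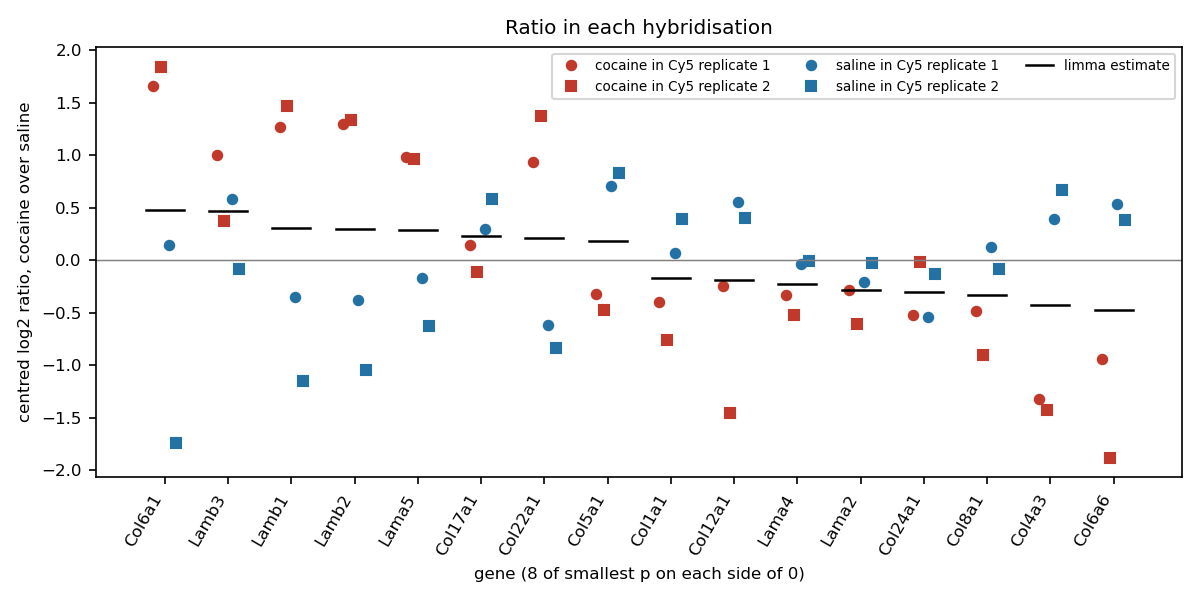
Median-centred log2 ratio of cocaine over saline (vertical axis) in each of the 4 hybridisations for the 8 genes of smallest p above 0 and the 8 below 0. Red is cocaine in Cy5, blue is saline in Cy5, circles are replicate 1, squares replicate 2, and bars are limma estimates. For Col6a1, Lamb1, Lamb2, Lama5, Col4a3 and Col6a6 the red and blue points lie apart; for Col24a1, Lama2 and Lama4 all 4 points lie below 0.

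Which dye a sample carried moved these ratios more than the treatment did. By limma's adjusted p of 0.05 the dye coefficient was called in 32 of 52 collagens and laminins (61.5%), against 77.9% of all genes. Of these, 11 leaned towards Cy5, against 34.5% of all genes, and 21 towards Cy3, against 43.4%. The leaning is relative to the median of each centred scan and does not say which channel was brighter. With the direction turned, 21 would lean towards Cy5 and 11 towards Cy3. The median size of the dye coefficient was 0.52 for the 52 genes and 0.75 for all genes. Of the 52 genes 39 had ratios of opposite sign in the 2 orientations, positive with cocaine in Cy5 in 14 and negative in 25. The same count was not taken over all genes, so it cannot be read as a trait of these genes.

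Over the 52 genes the cocaine and dye estimates went together, with r = 0.586 and Spearman's rho = 0.539, against r = 0.397 over all genes. The 2 estimates come from the same 4 arrays and the genes share those libraries, so no p-value is given. Of the 9 genes with a dye coefficient above 0.6, a bound chosen after the values were seen, 7 had a cocaine estimate above 0, with a median of 0.22. Of the 12 genes below -0.6, 2 were above 0, with a median of -0.08. When all genes were sorted into 10 equal bins by dye coefficient, the median cocaine estimate was -0.05 in the lowest bin and 0.18 in the highest. The beta chains Lamb1 and Lamb2 lay in the bin next to the highest, whose median was 0.14, and Col6a1 in the highest. Col6a6 and Col4a3 lay in the bin next to the lowest, whose median was -0.06. All 5 estimates were farther from 0 than the median of their bin. These genes were picked among those of smallest p, so that distance followed from the choice and carries no weight.

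**Figure D3:**
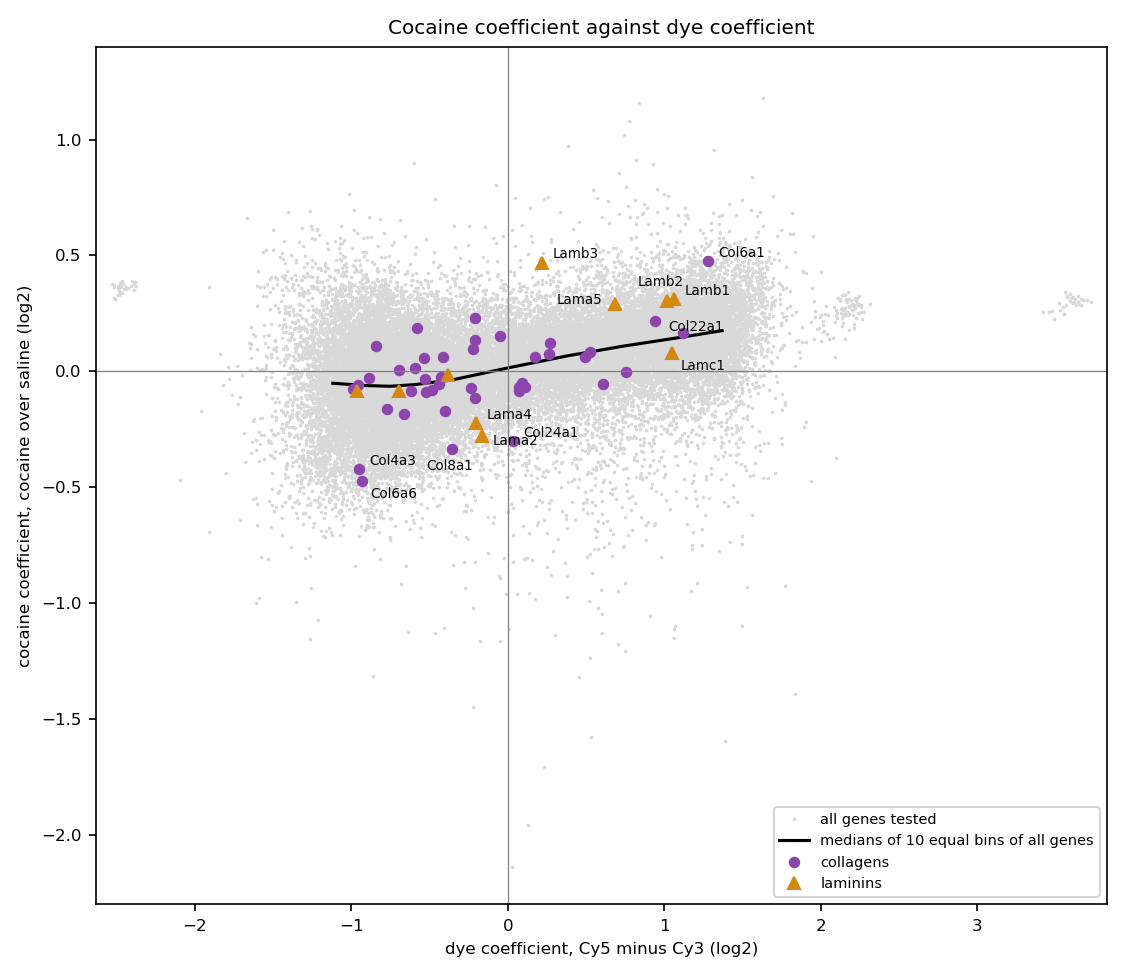
Cocaine estimate (vertical axis, log2, cocaine over saline) against dye estimate (horizontal axis, log2, Cy5 minus Cy3) for all 31334 genes (grey), 42 collagens (purple circles) and 10 laminins (orange triangles). The black line joins the medians of 10 equal bins of all genes and climbs from left to right, from -0.05 to 0.18. Lamb1, Lamb2 and Col6a1 lie at the right with positive cocaine estimates, and Col4a3 and Col6a6 at the left with negative ones.

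For dye-profile values, a loess curve along each array row's mean dye bias, computed from the Agilent scans only, was removed from every scan. These values gave the same count of calls. In them 0 of 52 genes passed limma's adjusted p of 0.05, as did 0 of all genes, and 4 (7.69%) had an unadjusted p below 0.05 against 7.25% of all genes. Those 4 were Col4a3 at -0.36 ± 0.10, Col8a1 at -0.32 ± 0.11, Col6a6 at -0.41 ± 0.14 and Lama2 at -0.27 ± 0.10 (limma adjusted p = 0.67 for each). All 4 of these genes were below 0 in every hybridisation in these values. Lamb1 and Lamb2 were at 0.17 ± 0.12 each, and Col6a1 at 0.32 ± 0.24, smaller than after centring. Among the 9 genes of high dye coefficient the median cocaine estimate was 0.09, and among the 12 of low dye coefficient -0.02. The sign of the estimate was the same as after centring in 47 of 52 genes.

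After centring, 4 of 52 genes (7.69%) had the same sign in all 4 hybridisations, against 1.84% of all genes. They were Col24a1, Lama2 and Lama4, all below 0 (0.766% of all genes), and Col4a4, all above 0 (1.08%). Genes with 1 sign throughout lay mostly at small dye coefficients, 547 of the 578 on the whole array within 0.3 of 0, a bound set after the values were seen. Within that bound they were 4 of 17 collagens and laminins and 10.9% of all genes. In dye-profile values 11 of 52 genes (21.2%) had 1 sign throughout, 3 above and 8 below 0, against 19.1% of all genes, 9.57% above and 9.48% below. Since the profile is computed from the same arrays, agreement between them is not independent there.

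Probes of the same gene were compared because averaging can hide or cancel differences. Of the 32 genes with several probes, 11 had all probes on the same side of 0, against 53.0% of the 8266 genes with several probes on the whole array. The median range between probes of a gene was 0.245 for the cocaine estimate and 0.98 for the dye estimate. Col4a3 had 3 probes, all below 0, at -0.54, -0.39 and -0.33, with dye coefficients between -1.005 and -0.92. Col4a1 also had 3 probes on the same side, at 0.07, 0.12 and 0.17. The Col4a4 probes stood at 0.12 and 0.19 with dye coefficients of 0.87 and -0.97, which cancelled in the mean, so its small dye coefficient was that of no single probe. The 4 Lama4 probes, all below 0, ran from -0.44 to -0.01, and the 3 Lama2 probes from -0.55 to -0.09.

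Single probes carried differences that gene means did not show. One Col17a1 probe had 0.93 and 0.999 with cocaine in Cy5, and 0.43 and 0.00 with saline in Cy5, while the other had -0.64 and -1.21, and 0.18 and 1.17. Their estimates were 0.59 ± 0.20 and -0.13 ± 0.20. One Col24a1 probe had -0.99 and -0.24 with cocaine in Cy5, and -0.715 and -0.39 with saline in Cy5, with an estimate of -0.58 ± 0.20, while the other stood at -0.02. These and a Lama4 probe at -0.38 were the 3 of 101 probes (2.97%) with 1 sign in all hybridisations, against 1.8% of array rows. In a fit of single array rows, in which limma took the spread as equal for every row, 11 of 101 probes (10.9%) had an unadjusted p below 0.05, against 6.12% of 44289 rows. Of these 8 were lower with cocaine (3.27% of all rows) and 3 higher (2.85%), and the 11 probes lay in 11 different genes. By adjusted p 0 of the 101 passed, the lowest being 0.357, while 120 rows of the array did (0.271%). Which transcript each probe reads was not examined, and the look at single probes was chosen after the data were seen.

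**Figure D4:**
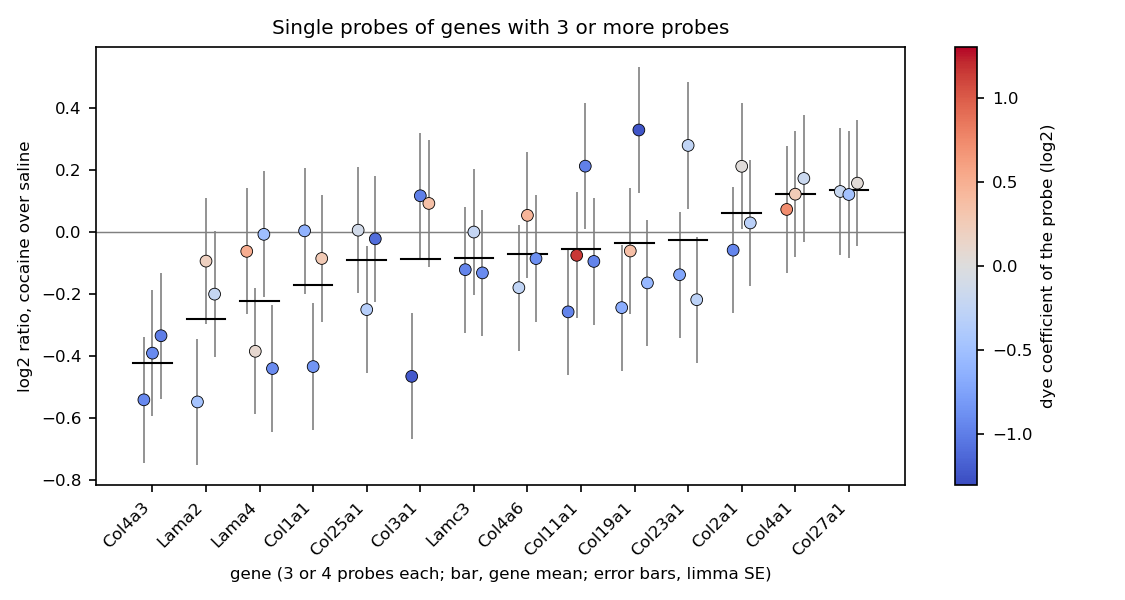
Cocaine over saline log2 ratio (vertical axis) of each probe of the 14 collagen and laminin genes with 3 or 4 probes, with limma SE as error bars and the gene mean as a black bar. Colour gives the probe's dye coefficient. The 3 probes of Col4a3 lie at -0.54 to -0.33 and those of Col4a1 at 0.07 to 0.17, while Col19a1 and Col3a1 have probes on both sides of 0.

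Neighbouring genes were set side by side since several collagen genes lie in pairs. The 6 adjacent pairs were Col4a1 with Col4a2, Col4a3 with Col4a4, Col4a5 with Col4a6, Col3a1 with Col5a2, Col6a1 with Col6a2 and Col9a1 with Col19a1. Estimates had the same sign in the first and the last pair (0.12 and 0.06, and -0.03 and -0.03) and opposite signs in the other 4, and the 95% intervals overlapped in all 6.

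The proteins that bind, modify and remove collagens and laminins were read from lists that were chosen with earlier results known. None of their genes passed limma's adjusted p of 0.05 in either direction. At an unadjusted p below 0.05 were 2 of 26 genes of collagen biosynthesis and 2 of 10 of the brain interstitial matrix, against 6.04% of all genes. Collagen biosynthesis, the enzymes and chaperones that modify, secrete and cross-link procollagen, had 26 of 27 genes measured, a median of 0.04 and 15 above 0. Colgalt1, which adds galactose to collagen hydroxylysines, had 1.69 and 2.03 with cocaine in Cy5, and -0.43 and -1.05 with saline in Cy5, an estimate of 0.56 ± 0.18 (adjusted p = 0.632). P3h2, a prolyl 3-hydroxylase, stood at -0.42 ± 0.18. Colgalt1 and P3h2 both followed the dye orientation, with dye coefficients of 1.299 and -0.93.

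Receptors for collagen and laminin had 12 of 13 genes measured and a median of -0.03. The collagen receptor subunit Itga11 stood at 0.32 ± 0.17 and Itgb4, the integrin chain of hemidesmosomes, at -0.31 ± 0.18. Basement membrane partners had 12 of 13 measured and a median of 0.03, with Ntn1, a laminin-related guidance cue, at 0.19 ± 0.17 and Npnt, an integrin ligand, at -0.17 ± 0.18. Matrix proteases and their inhibitors had 11 of 12 measured and a median of 0.07, with the protease Mmp3 at -0.33 ± 0.17 and the inhibitor Timp2 at 0.35 ± 0.20. The 6 small leucine-rich proteoglycans, collagen binders, had a median of -0.04, with Fmod at -0.31 ± 0.18 and Prelp at 0.18 ± 0.17. The 10 genes of the brain interstitial matrix had a median of -0.10. Of these Hapln4, a link protein, stood at -0.38 ± 0.17, negative in 4 of 4 hybridisations, and Bcan, the proteoglycan brevican, at 0.39 ± 0.18, with signs that followed the dye (adjusted p-values of 0.81 and 0.814).

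None of the markers of the cells that make this matrix passed limma's adjusted p of 0.05. Only 1, Clic6, had an unadjusted p below 0.05, against 6.04% of all genes. Medians were -0.03 for 9 endothelial markers, 0.06 for 10 mural cell markers, -0.11 for 8 fibroblast markers of vessels and meninges, 0.13 for 7 astrocyte markers, 0.06 for 6 oligodendrocyte precursor markers and 0.04 for 5 of 6 choroid plexus markers. In dye-profile values these medians were, in the same order, -0.088, -0.020, -0.134, 0.008, 0.010 and 0.081. The astrocyte markers had a median dye coefficient of 0.85. The 2 of smallest p were Kdr (-0.30 ± 0.17) and Esam (0.18 ± 0.17) for endothelium, Des (-0.23 ± 0.18) and Abcc9 (-0.17 ± 0.17) for mural cells, and Slc13a4 (-0.28 ± 0.19) and Slc22a6 (-0.23 ± 0.17) for fibroblasts. They were Aldh1l1 (0.33 ± 0.18) and Aldoc (0.23 ± 0.18) for astrocytes, Olig2 (0.11 ± 0.17) and Cspg4 (0.11 ± 0.18) for oligodendrocyte precursors, and Clic6 (0.37 ± 0.17) and Folr1 (-0.25 ± 0.17) for choroid plexus. Medium spiny neuron markers, which define this region, were above 0 in 8 of 8 measured genes of 10 listed. Their median was 0.32 after centring and 0.12 in dye-profile values. Their median dye coefficient was 1.44, and 7 of the 8 were called for dye. For cocaine 0 were called, and 3 had an unadjusted p below 0.05 (6.04% of all genes), led by Ppp1r1b (0.69 ± 0.19) and Adcy5 (0.61 ± 0.20). Cortical projection neuron markers had 10 of 11 measured and a median of -0.37. Of these 3 passed, all lower, against 0.0223% of all genes, and Tbr1 (-1.45 ± 0.18) and Nrn1 (-1.71 ± 0.24) had the smallest p. In dye-profile values their median was -0.36 and 0 passed, as over all genes. The part of these markers in the collagen and laminin ratios was not tested.

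**Figure D5:**
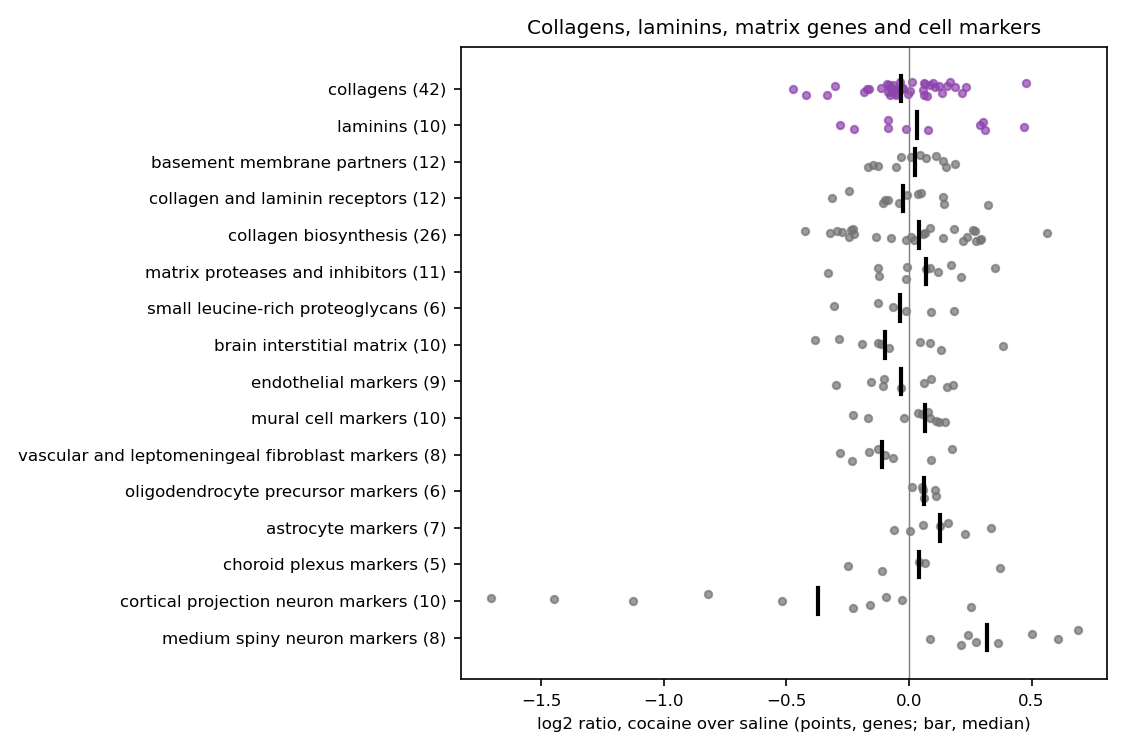
Log2 ratio of cocaine over saline (horizontal axis) for each measured gene of the collagens, laminins, related matrix lists and cell type marker lists (rows, number of genes in brackets). Points are genes and black bars are medians. Collagens and laminins lie between -0.47 and 0.48, and the cortical projection neuron markers reach -1.71.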

How the data were processed

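Agilent 2-colour whole mouse genome arrays were hybridised with RNA amplified from 75 ng aliquots, per the labels. The authors deposited log2 ratios of both channels per scan, 44290 rows; no source used here names the image analysis, background correction or normalization, and the log2 base was read from the values. No intensities were used, so array number limits precision. Rows were joined to probe names by a grid layout inferred from the data (r = 0.506 between probes of the same accession over 5744 pairs, against -0.014 in listed order). Scan medians were -0.885 to -0.617 with cocaine in Cy5 and 0.637 to 0.823 with saline in Cy5. Values at a stop value (4 to 37 per scan) were set missing, scans were median-centred, probes averaged per symbol and both scans of a hybridisation averaged. limma 3.58.1 (R 4.3.3; lmFit, eBayes) fitted coefficients for cocaine and for dye (2 residual degrees of freedom), two-sided, with Benjamini-Hochberg adjustment over all 31334 genes. p-values measure the spread between these hybridisations, which limma took largely from all genes together (15.9 prior degrees of freedom after centring). An SE is therefore not the spread of that gene alone. Dye-profile values used loess (span 0.3, 4 iterations). The fit was tested on simulated data whose added differences were all larger than any collagen or laminin estimate here. Differences of the size of those estimates were not tried. The members and lists were chosen with earlier results of these data known. Named genes are members past adjusted p of 0.05, the 8 of smallest p on each side of 0, a panel of well-known chains, and the 2 of smallest p in each list; other members are given in the accounts of their families, and were chosen after their values were seen. Col6a3, Col6a5, Col21a1 and Lamb4 were not analysed here. Promoter sequences are from RefSeq.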

Additional observations from a re-analysis of the deposited data

Results flagged for a closer look

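In dye-profile values Lama1 stood at -0.646 in cocaine in Cy5 replicate 2, against 0.119 to 0.233 in the other 3 hybridisations, a gap of 0.87 of the whole range. It is 1 of 27 sets of 4 values examined, 1 per named collagen or laminin gene, and chance gives about 1.35.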

How the results depend on the processing

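The count of 0 collagens and laminins passing for cocaine held under all 12 alternatives, among them each array row on its own, which was chosen after seeing the data. The lowest adjusted p of any named gene under any alternative was 0.0656, for Col6a1 without saline in Cy5 replicate 2. Over all genes, the 8 called were 0 in dye-profile values, 20 with Agilent scans only, 0 with Axon scans only, 30 with the median of probes, 0 with no dye term, 4 with stop values kept, 16 with robust eBayes, and 66 to 288 without 1 hybridisation, where limma took the spread as equal for every gene. The 3 collagens and laminins at an unadjusted p below 0.05 were 5 with Agilent scans only, 0 with no dye term, and 1 to 3 without 1 hybridisation (1 for cocaine in Cy5 replicate 2 and for saline in Cy5 replicate 1). The 32 with a dye effect were 0 in dye-profile values, which remove it, 3 with Axon scans only, and 23 to 31 without 1 hybridisation. The median of the other collagens (Col7a1, Col26a1, Col28a1) was 0.026 in dye-profile values, -0.017 with Agilent scans only and -0.093 to 0.15 without 1 hybridisation; that of gamma chains was -0.045 in dye-profile values; without 1 hybridisation that of alpha chains was -0.27 to 0.061, of collagen IV -0.041 to 0.099, of all 52 genes -0.089 to 0.055, of fibrillar -0.14 to 0.017, of collagen VI -0.23 to 0.15, of network-forming -0.23 to 0.046, of fibril-associated -0.12 to 0.14, of transmembrane -0.12 to 0.087, of multiplexin -0.18 to 0.072 and of gamma chain genes -0.018 to 0.013. That of beta chains was 0.13 to 0.51. Of 297 estimates of 27 named genes under the others, 276 kept their sign and 21, in 12 genes, did not. In dye-profile values Lamc1 was -0.060; with Agilent scans only Col12a1 was 0.061, Col1a2 0.065, Col5a1 -0.13 and Col6a2 0.042; with Axon scans only Col19a1 was 0.063, Col25a1 0.041 and Col4a2 -0.023. Without 1 hybridisation the estimates ran from -0.23 to 0.13 for Col11a1, -0.49 to 0.12 for Col12a1, -0.12 to 0.022 for Col18a1, -0.21 to 0.14 for Col19a1, -0.14 to 0.0086 for Col1a2, -0.26 to 0.083 for Col25a1, -0.25 to 0.083 for Col3a1, -0.32 to 0.16 for Col6a2, -0.39 to 0.23 for Lama1 and -0.034 to 0.19 for Lamc1. The causes were not tested. Each array holds a cocaine and a saline RNA, so the ratios already pair them. No further pairing between arrays was made, because replicate numbers were given in accession order. With 4 arrays and no intensities, differences could be missed, and genes near background could not be set aside. The intervals given are unadjusted, and passing the adjusted p took more than an interval that left out 0. Neurod2 at -0.82 and Ppp1r1b at 0.69 were not called (limma adjusted p-values of 0.171 and 0.473).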
